A study of Homo sapiens with 4 samples.

Results

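The THP-1 ribosome-profiling library was examined on its own, to see which protein-coding genes and functions its ribosomes were spent on. The members were the 19399 protein-coding genes with a gene name, out of 60651 genes listed in the deposited table. The series profiled 4 human leukemia lines with 1 library each: K562, THP-1, a line labelled MOLM13 and HL60. THP-1 is a monocytic line from an acute leukemia with a KMT2A-MLLT3 fusion, HL60 and MOLM13 are acute myeloid leukemia lines, and K562 is a chronic myeloid leukemia line derived at the blast stage. The labels name no treatment; THP-1 was grown in RPMI medium with serum and 2-mercaptoethanol, and the lysis buffer held cycloheximide, which holds ribosomes in place. The file of the third line carries a name other than its label, so it is written here as the library labelled MOLM13. There was 1 culture per line, so no test between lines was possible, and the intervals given cover counting error only.

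Ribosome profiling reads the short stretch of mRNA that a translating ribosome shields from nuclease. Each footprint stands for 1 ribosome at work, so a gene's share of footprints approximates the share of elongating ribosomes devoted to it. That share depends on how much mRNA is present, how often translation starts on it and how long the coding sequence is. In growing blood cells much of this effort is known to go to ribosomal proteins, cytoskeleton, chaperones and energy enzymes, and in myeloid cells also to the contents of granules.

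Investment was measured in 2 ways. The share of aligned bases adds the depth of coverage times the exon length over a gene's transcripts and divides by the same sum over all members, so a long coding sequence counts in full. TPM, the deposited per-length unit scaled to a common total, divides by length first, so it gives footprints per unit of transcript length, summed over the mRNA copies present. The THP-1 library held 678 megabases of aligned sequence, of which 85.0% lay on the members, and the members' share ranged from 77.1% to 88.0% in the other 3 libraries. At the commonest fragment length of 29 bases this amounts to 19878272 footprints. A footprint was recorded on 11482 members, and 10827 reached 600 aligned bases, about 20.7 footprints, at which the 95% Poisson interval of a value spans 61.7% to 153% of it.

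Ribosomes in THP-1 were concentrated on few genes. A single gene, CAP1, held 1.56% of aligned bases, the top 10 genes held 6.75% (95% exact binomial interval 6.74% to 6.76%), the top 20 held 9.30% and the top 100 held 20.5% (20.4% to 20.5%). The first 25% of the footprints fell on 151 genes, the first 50% on 681, the first 75% on 2145 and the first 90% on 4374. The 681 became 339 when TPM replaced aligned bases, and 316 among the 10749 genes without exon overlap. The top 100 held 17.8% in K562, 15.7% in the library labelled MOLM13, with HL60 at 24.0%, so THP-1 lay between the flatter pair and HL60. Of the THP-1 top 100, 52 were also in the top 100 of K562, 53 in that of the library labelled MOLM13 and 57 in that of HL60. Counted in TPM, the top 100 held 29.6% in THP-1.

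**Figure D1:**
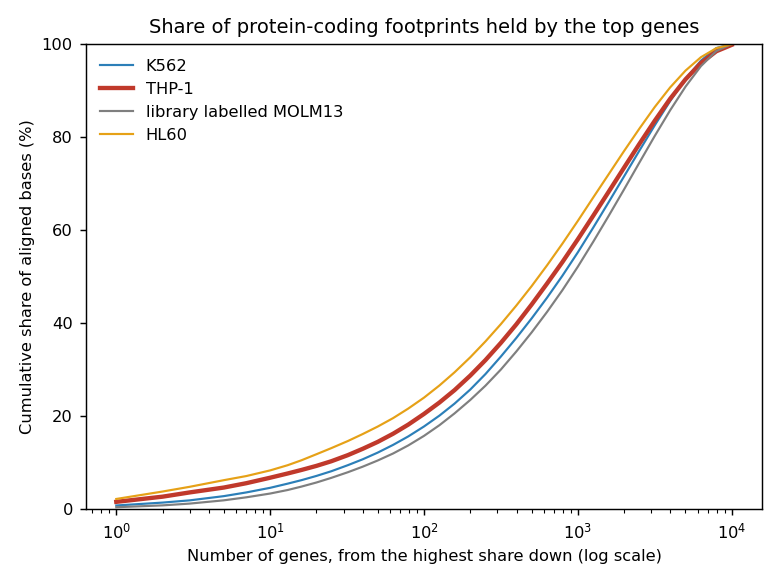
Cumulative share of protein-coding aligned bases (percent, vertical) held by the top genes of each library (number of genes, horizontal, log scale), 1 line per library. The THP-1 line starts at 1.56% for its top gene, reaches 20.5% at 100 genes and lies below HL60 and above the other pair at that point.

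The leading genes were of a few kinds. CAP1 binds actin and cofilin and recycles actin monomers. SRGN, the core protein of the granule proteoglycan serglycin, followed at 1.11% and was first by TPM, at 9101 against 8847 for CAP1. The cytoplasmic actins ACTB (0.913%) and ACTG1 (0.532%) came next, then PPT1 (0.516%), a lysosomal thioesterase that removes palmitate from proteins. ENO1 (0.483%) is the glycolytic enolase, HSPA8 (0.452%) the constitutive HSC70 chaperone and HNRNPA2B1 (0.424%) a nuclear RNA-binding protein. LYZ (0.416%) is the bacteriolytic enzyme lysozyme and CTSG (0.337%) the granule protease cathepsin G. The next 10 genes were the chaperone HSP90AB1, the RNA-binding HNRNPU, the DNA-repair kinase PRKDC, the MHC light chain B2M, the aldolase ALDOA, the calcium-binding ER chaperones CALR and CANX, the actin-severing CFL1, the amyloid-precursor-like APLP2 and the carbonic anhydrase CA2, at 0.333% down to 0.205%. Each of these shares rests on at least 40766 footprints, so its counting interval is narrow: that of CAP1 spans 1.556% to 1.567%.

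**Figure D2:**
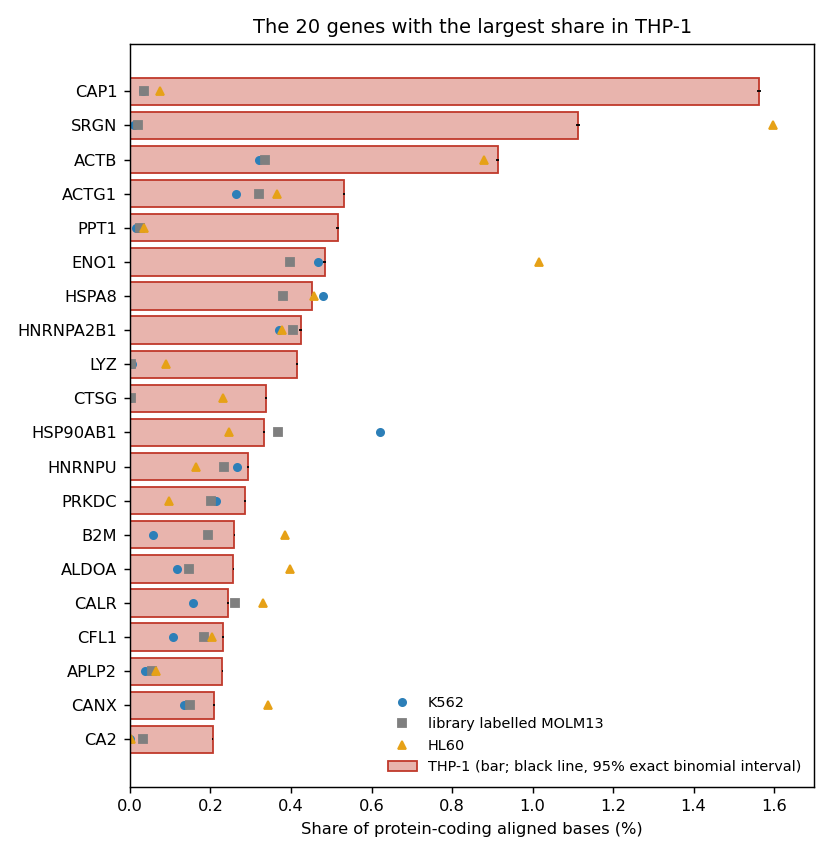
Share of protein-coding aligned bases (percent, horizontal) of the 20 genes with the largest share in THP-1 (bars, with the exact 95% binomial interval as a black line), and the same gene's share in the other 3 libraries (points). CAP1 at 1.56% and PPT1 at 0.516% stand far above their points in the other libraries, ENO1 and SRGN lie below the HL60 point, and HSPA8 and HNRNPA2B1 are close to all 3.

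The first 29 coding bases of some leading genes are shown because 1 footprint is about that long, and because they show whether a footprint there can be placed. They come from the transcripts of GENCODE release 29 (GRCh38), with the start codon in capitals.
CAP1 (chr1:40059347-40059375, plus strand): ATGgctgacatgcaaaatctggtagaaag
SRGN (chr10:69088158-69088186, plus strand): ATGatgcagaagctactcaaatgcagtcg
LYZ (chr12:69348409-69348437, plus strand): ATGaaggctctcattgttctggggcttgt
CTSG (chr14:24576195-24576223, minus strand): ATGcagccactcctgcttctgctggcctt
ACTB (chr7:5529629-5529657, minus strand): ATGgatgatgatatcgccgcgctcgtcgt
The windows of SRGN, LYZ, CTSG and ACTB occur in the transcripts of 0 other genes and that of CAP1 in 1 other gene. Over the whole coding sequence, 29.6% of the windows of CAP1 and 51.3% of those of ACTB occur elsewhere, against 0 of those of SRGN, LYZ and CTSG.

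Genes were also grouped in 37 lists by function or cell type, with no gene in more than 1 list. The lists matched 1211 members, which held 43.3% of aligned bases and 79 of the top 100 genes. The 18188 other members held 56.7% and 21 of the top 100. In the whole ranking a list with a large sum could rest on many moderate genes or on a few very high ones, and both occurred.

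**Figure D3:**
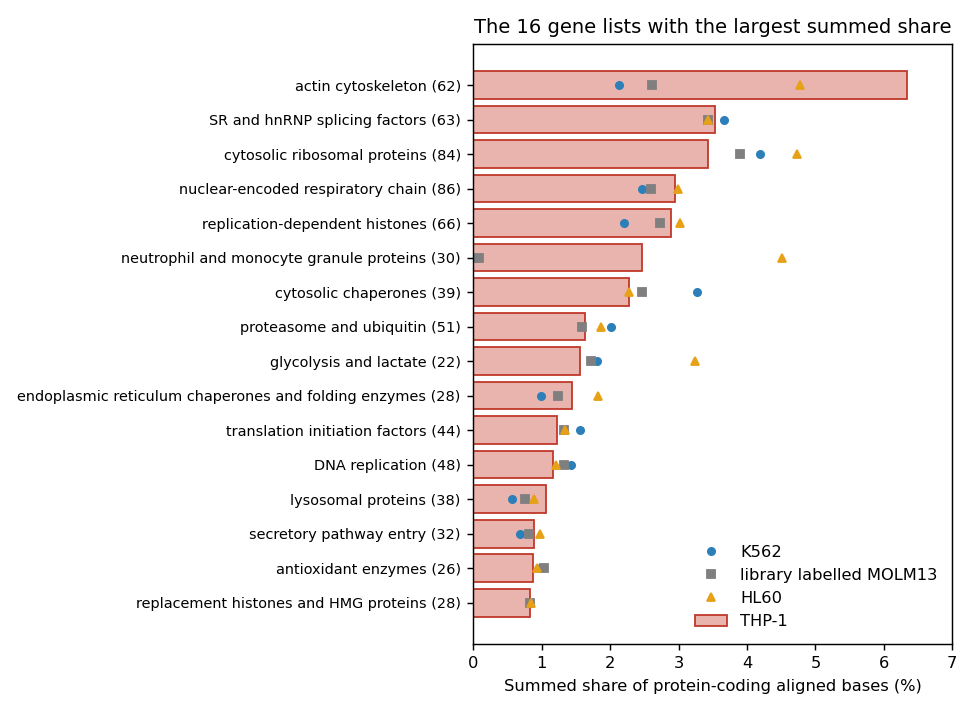
Summed share of protein-coding aligned bases (percent, horizontal) for the 16 gene lists with the largest sum in THP-1 (bars, with the number of members in parentheses), and the sums in the other 3 libraries (points). Actin cytoskeleton genes lead at 6.34%, ribosomal proteins at 3.43% lie below all 3 points, and granule proteins at 2.47% are far above 2 of the points and below HL60.

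The actin cytoskeleton took the largest sum. Its 62 genes held 6.34%, with 13 in the top 100 and 60 at 600 bases or more, against 2.13% in K562, 2.62% in the library labelled MOLM13, with HL60 at 4.78%. CAP1, ACTB and ACTG1 led it. Below them came CFL1 (0.231%), the filament-severing GSN (0.197%), the myosin light chain MYL6 (0.189%) and the leukocyte filament-bundling LCP1 at 1743 ppm, where 10000 ppm is 1% of the members' aligned bases. The ARP2/3 subunit ARPC5, the monomer-binding PFN1, the myosin heavy chain MYH9 and the membrane linker MSN were also among the top 100. CAP1 alone made up 1.56% of the 6.34% in THP-1, while it stood at 734 ppm in HL60. The excess of the list over HL60 thus rested largely on CAP1, which lies in a chromosome 1 run described below. ACTB and ACTG1 encode proteins that differ at 4 of 375 residues, while their coding sequences differ at 98 of 1125 bases, and 92 of the 1097 windows of 29 bases in ACTB also occur in ACTG1. Counting all other genes, 51.3% of ACTB windows and 36.0% of ACTG1 windows occur in transcripts of another gene. As assigned in the table, ACTB held 63.2% of the pair.

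Granule proteins of neutrophils and monocytes held 2.47% over 30 genes, a sum that rested on few of them: SRGN, LYZ, CTSG, AZU1, ELANE and PRTN3 were in the top 100 and 10 members were listed at 0. The same list held 0.0321% in K562, 0.0778% in the library labelled MOLM13, with HL60 at 4.51%. The serine proteases of the primary granule were read in graded amounts. CTSG stood at 3374 ppm, against 0 in K562, 18.1 in the library labelled MOLM13, with HL60 at 2302. AZU1, an inactive member of the family with antibacterial activity, stood at 1928 ppm, against 0, 4.78 and 328 ppm in the same order. ELANE, neutrophil elastase, was at 1405 ppm, against 0, 3.00 and 101 ppm. PRTN3, proteinase 3, was at 1097 ppm, against 0, 2.00 and 171 ppm. For these 4 members of the family THP-1 was thus the highest library. Myeloperoxidase, MPO, was at 125 ppm in THP-1 and at 21816 ppm in HL60. The ribonuclease RNASE2 stood at 677 ppm and complement factor CFD at 317 ppm. Genes of the later granules, such as LTF, LCN2, CAMP and MMP8, were listed at 0.

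The markers fixed for monocytes and macrophages held 0.564%, with 27 of 33 above 0, against 0.0605% in K562, 0.0923% in the library labelled MOLM13, with HL60 at 0.511%. IRF8, a transcription factor of the monocyte lineage, led at 1081 ppm, against 2.41, 2.48 and 4.04 ppm in K562, the library labelled MOLM13 and HL60. The NADPH oxidase subunit CYBA (808 ppm), the integrin chain ITGB2 (646 ppm), the chemokine receptor CCR2 (485 ppm), MNDA (470.5 ppm) and TLR2 (400.3 ppm) followed. CCR2 was at 0, 1.19 and 2.00 ppm in the same 3 libraries. CSF1R, the receptor for the monocyte growth factor, was at 85.4 ppm, and the surface marker CD14 at 2.60 ppm, so the label was borne by some of its defining genes and not by all. FCN1, MSR1, CD163, FCGR1A, NCF1 and CLEC7A were listed at 0. FCGR1A has 91.9% of its 29-base coding windows also in another gene, and NCF1 has 90.9%. Their 0 cannot be told apart from reads that were not placed or were assigned to another gene. MSR1, CD163 and CLEC7A have 0% shared. In a pooled culture, few cells with much of a product and many cells with little of it cannot be told apart. Of 15 erythroid markers 1 was above 0, of 8 megakaryocyte markers 1, of 9 B cell markers 2 and of 13 T and NK cell markers 3. These lists held at most 0.00444% each in THP-1. The T and NK cell list held 0.172% in the library labelled MOLM13, against 0.00555% in K562 and 0.00167% in HL60. Epithelial and fibroblast markers held 0.0216% in THP-1. Antigen presentation was read unevenly: MHC class I genes held 0.451%, of which B2M alone was 0.259%, and class II genes held 0.0680%, led by the invariant chain CD74 at 389 ppm.

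Housekeeping functions filled much of the remainder. Splicing factors of the SR and hnRNP families held 3.53% over 63 genes, and the other libraries lay between 3.42% and 3.67%. HNRNPA2B1 and HNRNPU led them. Cytosolic chaperones held 2.28%, led by HSPA8, HSP90AB1 (0.333%) and HSP90AA1 (0.156%). All 39 had footprints, and CCT3 and CCT5, subunits of the chaperonin that folds actin and tubulin, were in the top 100. The nuclear-encoded respiratory chain list, which also counts ATP synthase subunits and the phosphate carrier SLC25A3, held 2.94%. ATP5F1B and ATP5F1A of ATP synthase and SLC25A3 led it. The 13 mitochondrially encoded proteins held 0.620%, against 2.13%, 1.12% and 0.984% in K562, the library labelled MOLM13 and HL60. MT-ND5 (0.163%), MT-CYB and MT-CO1 led the mitochondrially encoded proteins. Glycolysis held 1.56% against 3.24% in HL60, with ENO1, ALDOA and the lactate dehydrogenase subunit LDHB first. Chaperones and folding enzymes of the endoplasmic reticulum held 1.44% with 6 of 28 genes in the top 100, of which P4HB, a disulfide isomerase, held 0.187%. The proteasome and ubiquitin list held 1.63% with 0 of 51 genes in the top 100, so its sum came from many moderate genes, of which PSMB1 at 882 ppm was the highest. The list of lysosomal proteins held 1.06%, led by the saposin precursor PSAP, against 0.559% to 0.879% in the other libraries. That list leaves out PPT1, which alone held 0.516%, and LAPTM5, so its sum is not all lysosomal investment.

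The remaining lists were smaller. Factors of translation initiation held 1.23%, led by the eIF3 subunits EIF3E (989 ppm) and EIF3A (744 ppm) and by EIF4G2 (732 ppm). Elongation and termination factors held 0.419%, and EEF2 made up 0.179%. Aminoacyl-tRNA synthetases, which charge tRNA, held 0.729%, led by EPRS1 at 1353 ppm, TARS1 at 663 ppm and AARS1 at 536 ppm, and all 22 had footprints. Proteins of the nucleolus held 0.783%, of which NCL, nucleolin, was 0.205%, and THP-1 had the lowest sum, against 1.18% to 1.40% in the other libraries. Mitochondrial ribosomal proteins held 0.744% over 79 genes, each at 278 ppm or less, with MRPL13, DAP3 and MRPL3 first. The even spread of that list differed from the steep one of the cytosolic ribosomal proteins.

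DNA replication held 1.16%, and all 48 genes had footprints. TOP2A, the topoisomerase that separates daughter chromosomes, stood at 1140.1 ppm, and the helicase subunits MCM3 and MCM4 at 921 and 867 ppm. Enzymes against oxidants held 0.866%, led by catalase, CAT, at 0.186%, PRDX1 at 1386 ppm and TXN at 768 ppm. CAT stood at 255.3 ppm in K562, 83.8 in the library labelled MOLM13, with HL60 at 2845. The S100 proteins and annexins held 0.680% against 0.353% in K562, 0.383% in the library labelled MOLM13, with HL60 at 0.650%. ANXA6 (780 ppm) and S100A11 (694 ppm) came after S100A4. Tubulins and intermediate filaments held 0.812%, led by the tubulin-binding STMN1 and the tubulins TUBB4B and TUBB. Replacement histones and HMG proteins held 0.830%, led by PTMA, H2AZ1 and HMGB2. The pentose phosphate and TCA cycle list held 0.809% (MDH1, PGD and ACLY first). Nucleotide and one-carbon synthesis held 0.643% (CTPS1, IMPDH2 and NME1) and lipid and sterol synthesis 0.632% (FASN, FDFT1 and HMGCS1). Entry to the secretory pathway held 0.879%, led by STT3A, RPN2 and DDOST of the enzyme that attaches glycans. Mitochondrial import and chaperones held 0.460% (HSPA9, HSPD1 and TOMM6), amino acid transporters 0.160% (SLC38A2, SLC1A5 and SLC3A2) and iron storage and uptake 0.117% (TFRC, NCOA4 and FTL). Of the lists in this paragraph, THP-1 was the lowest library for DNA replication, oxidant defence, the pentose phosphate and TCA cycle, nucleotide synthesis, lipid synthesis, mitochondrial import, amino acid transport and iron.

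The machinery of translation itself was a smaller item by bases than by TPM. The 84 cytosolic ribosomal protein genes held 3.43% of aligned bases (3.42% to 3.44%) and 7.29% of TPM, with 8 in the top 100 by bases and 17 by TPM. The other libraries were at 4.20% in K562, 3.90% in the library labelled MOLM13, with HL60 at 4.74%, so THP-1 had the lowest sum. RPL30, RACK1 and RPL11 led, at 0.178%, 0.157% and 0.152%. The level varied over the whole list: RPL30 had a TPM of 2757, RPS10 one of 0.67, and RPL26L1, RPS3A and RPS28 were listed at 0. Because subunits of a ribosome are needed in equal number, such a spread was set beside a property of the sequences. Ribosomal protein genes have many processed copies in the genome, and a footprint that matches several places may be lost or split. The share of a gene's 29-base coding windows that also occur in transcripts of another gene was therefore computed. A gene annotated over the same place counts as another gene, so a shared window need not match several places.

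The 10 ribosomal protein genes with at most 25% of windows shared had a median TPM of 1209 (58.9 to 1782). The 34 genes with 25% to 75% shared had a median of 650.0. The 40 genes with over 75% shared had a median of 94.7 (0 to 1206). The medians had the same order in the other libraries, with 1084, 484 and 102 in K562. Over all listed genes, those at 0 included, the median TPM was 98.4 for the 807 genes with at most 25% shared, 168 for the 235 between and 45.7 for the 167 with over 75% shared. Over all members it was 1.37 for the 16143 with at most 25% shared and 0 for the 1469 with over 75% shared. Among members with 600 bases or more, a filter that leaves out genes at or near 0, the medians were 9.48 and 13.6. How reads with several matches were treated is not given in the sources used here, and its part in these levels was not tested. The sum of 3.43% is therefore the amount assigned to these genes by the deposited table.

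**Figure D4:**
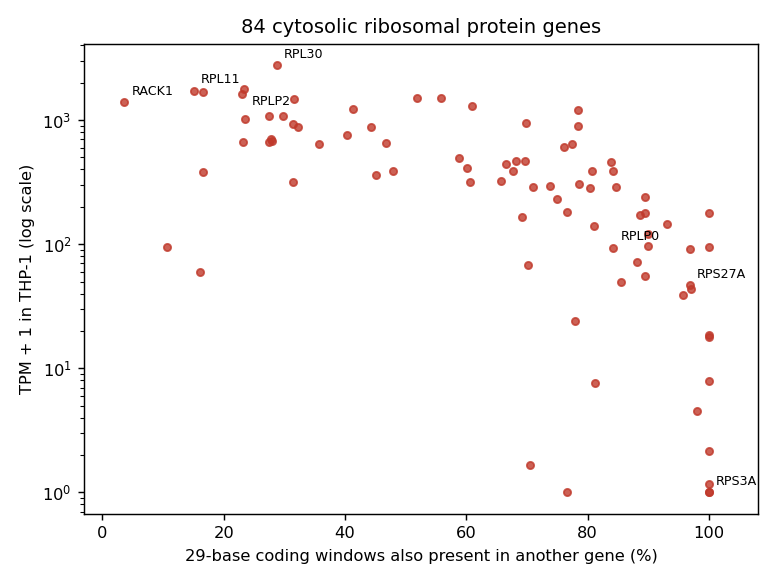
TPM plus 1 in THP-1 (log scale, vertical) of the 84 cytosolic ribosomal protein genes against the percent of their 29-base coding windows that also occur in another gene (horizontal), 1 point per gene. RACK1, RPL11 and RPLP2 with few shared windows lie above 1000, while RPS27A lies near 47 and RPS3A, with 100% shared, is at 0 TPM.

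Some other genes known for abundant products had many shared windows and a low rank, chosen here as examples. EEF1A1, which brings tRNA to the ribosome and is among the best known abundant proteins, ranked 1526 with 98.7% of windows shared, while EEF2, the translocase, ranked 33. FTH1, the ferritin heavy chain, ranked 5706 (90.8% shared), FTL 1738 (60.8%) and the thymosin TMSB4X 1917 (100%), while its paralogue TMSB10 with 29.8% shared ranked 143. GAPDH, 68.3% shared, was not low, at rank 119. The first coding windows show what is shared (GENCODE release 29, GRCh38, start codon in capitals).
EEF1A1 (chr6:73519998-73520026, minus strand): ATGggaaaggaaaagactcatatcaacat
FTH1 (chr11:61967397-61967425, minus strand): ATGacgaccgcgtccacctcgcaggtgcg
TMSB4X (chrX:12976262-12976290, plus strand): ATGtctgacaaacccgatatggctgagat
RPS27A (chr2:55232825-55232853, plus strand): ATGcagattttcgtgaaaacccttacggg
GAPDH (chr12:6534833-6534861, plus strand): ATGgggaaggtgaaggtcggagtcaacgg
The same 29 bases occur in transcripts of 5 other genes for EEF1A1, 4 for TMSB4X, 2 each for FTH1 and RPS27A and 1 for GAPDH. High levels with many shared windows also occurred: ALDOA (100% shared) ranked 15, LDHB (93.1%) ranked 46 and RPS25 (78.4%) ranked 62. HSPA8 (56.0%) ranked 7, HSP90AB1 (53.1%) ranked 11 and ACTB (51.3%) ranked 3. Exons of ALDOA, LDHB, RPS25 and HSPA8 overlap those of another gene on either strand. Windows shared through such overlap were not separated from copies at other places. Over 50% of windows were shared in 10.1% of the top 100 genes with a coding sequence, against 7.71% of members with 600 bases or more and 11.2% of all members.

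Some genes that dividing cells are known to need were listed at 0. PSMC1, an ATPase of the proteasome, SUMO2, a small modifier, U2AF1, a splicing factor, EIF2S2, a subunit of the initiation factor eIF2, SLC25A6, an adenine nucleotide carrier, and ARPC1A, an ARP2/3 subunit, were at 0 in THP-1 and in the other 3 libraries. Their shared windows made up 80.8% for EIF2S2, 90.7% for SUMO2, 98.7% for ARPC1A and 100% for PSMC1, U2AF1 and SLC25A6. VDAC2, a mitochondrial channel with 82.1% shared, was at 0 in THP-1 and K562 and at 52.2 ppm in the library labelled MOLM13, with HL60 at 47.5. For such genes absence of translation cannot be told apart from reads that were not placed or were assigned to another gene. MRPL23, with 0% shared, was also at 0 in THP-1, while it stood at 27.7 to 52.7 ppm in the other libraries, so shared windows did not go with every 0.

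Ribosomal protein mRNAs are known to begin with a terminal oligopyrimidine tract, a C followed by several pyrimidines, through which their translation follows growth signals. The 30 bases around the annotated start, 10 before it and 20 from it on, are shown for the leading ribosomal proteins RACK1 and RPL11, for RPLP2 and RPS3, and for EEF2, CAP1, HSPA8 and CTSG, with the first 5 transcribed bases in capitals (RefSeq, GRCh38.p14).
RACK1 (chr5:181243887-181243916, minus strand): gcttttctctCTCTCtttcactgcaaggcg
RPL11 (chr1:23691769-23691798, plus strand): cctggcccatAAGGCcctcggccggaagct
RPLP2 (chr11:809957-809986, plus strand): tcggcgccttCCTTTtcctccctgtcgcca
RPS3 (chr11:75399508-75399537, plus strand): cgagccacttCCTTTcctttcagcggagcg
EEF2 (chr19:3985444-3985473, minus strand): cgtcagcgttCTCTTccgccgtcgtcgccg
CAP1 (chr1:40040230-40040259, plus strand): caggcggagcGTGGCctcgatcaccaccga
HSPA8 (chr11:123062117-123062146, minus strand): ggaaaccggtCTCATtgaactcgcctgcag
CTSG (chr14:24576231-24576260, minus strand): gcacagcagcAACTGactgggcagcctttc
A start with C and 4 further pyrimidines, read on the transcribed strand only, was present in RACK1, RPLP2, RPS3 and EEF2 and not in the other 4, RPL11 among them. It was present in 45 of 68 ribosomal protein genes with a promoter entry and in 10 of 81 of the top 100 genes. Of all 15188 members with an entry, 707 had it (4.65%). The call rests on the annotated start base. With a tract allowed within 5 bases of that start, 54 of the 68 ribosomal protein genes had one. So did 26 of the 81 top genes and 22.2% of all members with an entry. Genes with such a start held 8.38% of the aligned bases of these members in THP-1, against 9.96% in K562, 9.30% in the library labelled MOLM13, with HL60 at 10.5%. Their part of the THP-1 footprints was thus the lowest of the 4, as was that of the ribosomal proteins. These results overlap in part: the 45 genes are in both sets and held 76.9% of the bases of the 68 in THP-1. The 707 also include genes outside that list, and all 84 ribosomal protein genes held 3.43% of the members' bases.

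Histones were the item that TPM moved most. The 66 replication-dependent histone genes held 2.89% of aligned bases and 8.41% of TPM, with 21 genes in the top 100 by TPM. These genes are short, have no intron and are read in S phase, when new DNA is packed. The linker histone H1-5 led by bases at 0.181%, followed by H3C2 (0.142%) and H1-2 at 1402 ppm. By family, H2B and H4 held 0.697% and 0.693%, H3 held 0.592%, H1 0.465% and H2A 0.443%. Within H4, 14 of 15 genes encode the same protein, so the family shows how one product is shared out among genes. H4C6 and H4C3 had TPM values of 2857 and 2786, then came H4C4 (2445) and H4C8 (2160), while H4C7 was at 2.23 and H4C11, H4C12, H4C14 and H4C15 were listed at 0. Each of the latter 4 has 100% of windows shared with another gene. A 0 there cannot be told apart from reads that could not be placed or were assigned to another gene.

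H4C6 was read in THP-1 and hardly in the other libraries: it stood at 1153 ppm, against 0.398 in K562, 5.03 in the library labelled MOLM13, with HL60 at 3.17. H4C3 stood at 1136 ppm, against 1378, 1717 and 1551 ppm. The coding sequences of H4C6 and H4C3 differ at 61 of 309 bases, and 0.356% of the windows of each occur elsewhere, so footprints of both can be placed. The first 29 coding bases of 5 H4 genes show this difference, with the 8 positions that vary among them in capitals (GENCODE release 29, GRCh38).
H4C3 (chr6:26103948-26103976, plus strand): atgtctggTCgCggCaaAggCggAaaAgg
H4C6 (chr6:26240426-26240454, plus strand): atgtctggTAgAggCaaAggTggTaaAgg
H4C4 (chr6:26189048-26189076, minus strand): atgtctggCCgCggTaaGggCggAaaGgg
H4C8 (chr6:26285471-26285499, minus strand): atgtctggCCgTggTaaAggTggAaaAgg
H4C13 (chr6:27873482-27873510, minus strand): atgtctggGCgCggCaaAggCggGaaGgg
Summed over the H4 family, THP-1 at 0.693% lay within the range of the other libraries, 0.533% to 0.707%, while the genes that made it up differed.

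Some genes ranked far apart by bases and by TPM. AHNAK, a giant scaffold protein of the membrane with 5890 codons, ranked 27 by bases and 1071 by TPM. ARPC5, with 154 codons and a leading transcript of 7266 bases, ranked 74 and 689. LYST, the lysosomal trafficking regulator with 3801 codons, ranked 85 and 1164, MYH9 ranked 92 and 784, and LRPPRC, a mitochondrial RNA-binding protein, 71 and 609. PRKDC, with 4128 codons, ranked 13 and 536. In the other direction, SLIRP, the partner of LRPPRC, ranked 88 by TPM and 538 by bases. The ATP synthase subunit ATP5MF (58 and 484), the calcium-binding S100A8 (81 and 449), H4C2 (90 and 448) and the cytochrome oxidase subunit COX6B1 (99 and 417) behaved likewise. The median coding length was 417 codons in the top 100 by bases and 158 in the top 100 by TPM, against 478 over members with 600 bases or more. LGALS1, a small galectin, had a TPM of 3713 (TPM rank 4) and ranked 24 by bases. S100A4, a small calcium-binding protein, was at 3366 and ranked 36.

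Genes in THP-1 that stood at least 4-fold above the highest of the other libraries, on the scale of log2 of ppm plus 1, numbered 550 of 10827 members with 600 bases or more, which is 5.08%. Of the top 100 genes, 16 passed. These were chosen for their high THP-1 level, which favours such a difference, so nothing is read from that share. CAP1, PPT1, ZMPSTE24 and NFYC lie together on chromosome 1. LYZ, AZU1, ELANE, PRTN3 and IRF8 are described above. CA2, which hydrates carbon dioxide, stood at 2051 ppm against 0 in K562, 319 in the library labelled MOLM13, with HL60 at 35.1. CHI3L1, a secreted chitinase-like glycoprotein of macrophages, stood at 2012 ppm against 0, 6.44 and 74.7 ppm. AHNAK, S100A4, LGALS1, GSN and H4C6 complete the set.

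The 21 genes of the top 100 in no list covered varied functions, beside PPT1, PRKDC, APLP2, CA2, CHI3L1, LGALS1, AHNAK, ZMPSTE24 and NFYC. CLTC, the clathrin heavy chain that coats endocytic vesicles, held 0.185% and GANAB, the glucosidase that trims glycans in the endoplasmic reticulum, held 0.145%. The repair factor XRCC5, partner of PRKDC, held 0.140%, and the adhesion and signalling protein CTNNB1 0.126%. PLAC8, SON, BSG, SRRM2 and the lysosomal membrane protein LAPTM5 were in the set, LAPTM5 at rank 100 with 0.103%. PSAP, at rank 101, held 0.102%.

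The genes around CAP1 were examined after its values had been seen. CAP1 (chr1:40040233-40072649) and PPT1 (chr1:40072710-40097260) are neighbours on opposite strands with no shared exon base. From PPIE to CITED4 (chr1:39692182-40862363) the annotation has 21 members, of which 19 had 600 bases or more. All 19 were higher in THP-1 than in each of the other libraries. Of them, 16 were at least 4-fold above the highest other library, against 5.08% of all members with 600 bases or more. The ends of the run were set after seeing these values, which favours such counts, so they are no test of the run. Together the 21 members held 2.74% of aligned bases, against 0.108% in K562, 0.125% in the library labelled MOLM13, with HL60 at 0.170%. Without CAP1 they held 1.18%.

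The 19 genes have unlike functions. ZMPSTE24, the protease that matures lamin A, stood at 1744 ppm, against 226, 283 and 242 ppm in K562, the library labelled MOLM13 and HL60. NFYC, a subunit of the CCAAT-binding factor, stood at 1079.7 ppm against 67.8, 56.5 and 75.5 ppm. The ARF regulator SMAP2 stood at 826 ppm against 90.03, 52.6 and 55.0 ppm. COL9A2, a cartilage collagen chain, stood at 209 ppm and was listed at 0 in the other 3. CITED4, a CBP-binding regulator, stood at 247 ppm against 0, 2.62 and 9.80 ppm. MFSD2A, a lipid transporter, stood at 261 ppm against 4.22, 10.0 and 20.3 ppm. So both genes that were read in all lines and genes that were nearly unread elsewhere were higher.

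The median log2 difference from the mean of the other libraries was 4.44 over the 19 genes, against 0.13 over all members with 600 bases or more. It was -0.18 over 7 genes on the side of lower coordinates, from RRAGC to HEYL, and 2.86 over 5 genes on the other side, from CTPS1 to PPCS. Nearest the run on the first side, HEYL (3.85) and PABPC4 (2.14) were higher in THP-1, while NDUFS5 (-0.41) and MACF1 (-0.28) farther out were not. MYCBP (1.16), farther still, was above all 3 other libraries. The ends of the run, which were set after seeing the values, are therefore not sharp. In a running median of 9 neighbouring genes along each chromosome, the highest of 10627 windows was 4.58 and lay in this run, and the highest outside it was 3.46, around BIK on chromosome 22. The 1-megabase bin that starts at 40 megabases held 2.71% and ranked first of 2534 bins in THP-1, while it ranked 192, 155 and 111 in K562, the library labelled MOLM13 and HL60. The second bin in THP-1 was the histone cluster on chromosome 6, at 1.95%.

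**Figure D5:**
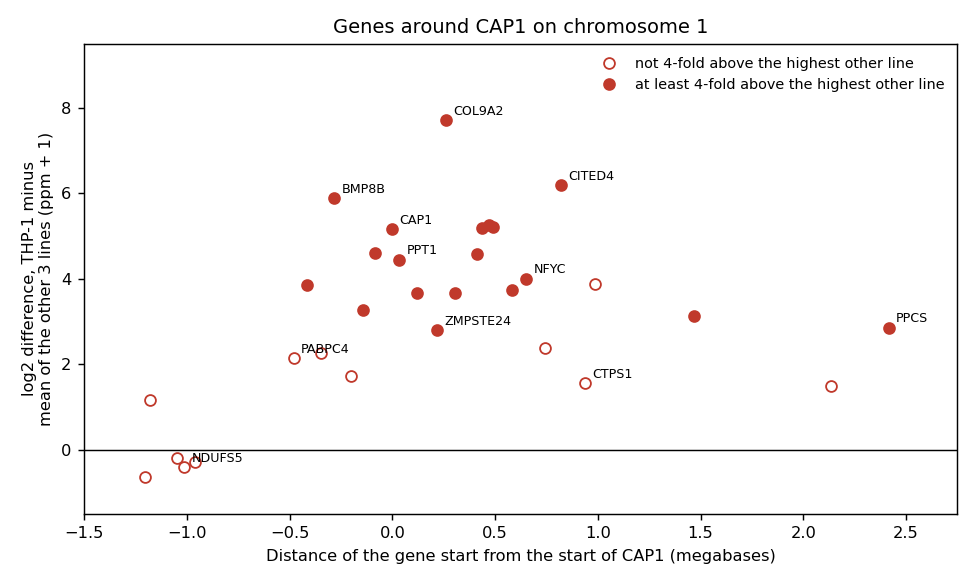
Log2 difference in ppm plus 1 between THP-1 and the mean of the other 3 libraries (vertical) for genes around CAP1 with at least 600 aligned bases, by distance of the gene start from that of CAP1 in megabases (horizontal). Filled points are at least 4-fold above the highest other library: CAP1 at 5.16, PPT1 at 4.44 and COL9A2 at 7.72 are among them, while NDUFS5 at -0.41 lies outside the run.

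Isoform use was taken from the split of each gene's bases among its annotated transcripts. Footprints are short and most lie in exons that isoforms share, so this split is the assembler's estimate and has no interval here. In the top 100 genes the leading transcript held a median of 90.4% of the gene's bases, with 5 of a median of 11 annotated transcripts above 0. Over all members with 600 bases or more the median was 98.2%, with 2 of 8. The leading transcript held over 90% in 50 of the top 100 genes and in 64.7% of all, and under 50% in 14 of the top 100 and in 4.75% of all.

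For SRGN 1 of its 2 transcripts held 99.8%. CLIC1, a chloride channel protein, and MSN had 100% on their leading transcript, AHNAK 99.96% and MYH9 99.94%. CAP1 was spread over 16 of 19 transcripts, of which the leading one held 51.8% and the next 14.9%, and 99.8% of its bases lay on transcripts typed as coding. The lowest leading shares were those of BSG, the surface glycoprotein basigin (30.5%), ACTB (33.9%), the malate dehydrogenase MDH1 (34.6%), ALDOA (35.5%), NFYC (37.1%), B2M (39.7%), HSPA8 (40.6%) and HNRNPH1 (42.4%). For MDH1 the first 3 transcripts held 34.6%, 31.2% and 28.9%, all typed as coding.

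The leading transcript was typed as coding in 83 of the top 100 genes and in 85.8% of members with 600 bases or more. It was typed as a retained intron in 8 of the top 100 and in 5.75% of members with 600 bases or more, and as a target of nonsense-mediated decay in 4, against 3.57% of those members. ACTG1 had 95.3% of its bases on a retained-intron transcript of 1958 bases and 2.13% on its principal coding transcript of 2256 bases. ENO1 had 84.6% on a retained-intron transcript and 0.484% on coding ones. ACTB had 33.9% on a transcript typed for decay, 28.8% on a retained intron and 19.9% on a coding transcript. CA2 had 51.7% on a transcript typed for decay and 33.1% on its principal coding transcript. Such models overlap the coding exons of the same gene, so these types name where the software placed the reads, and are not evidence that introns were translated.

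In 9 of the top 100 genes 1 exon held over 50% of the leading transcript's bases with under 50% of its length, against 21.1% of members with 600 bases or more. PTMA, the acidic nuclear protein prothymosin alpha, had 84.6% on its first exon, which was 19.5% of the length. Counted in the order of transcription, B2M had 82.5% on exon 2, PFN1 76.9% on exon 1 and CFL1 68.5% on exon 2. ARPC5 had 60.2% on its first exon, 267 bases, which made up 3.67% of the length, and RPS24 had 60.9% on exon 2, of 66 bases. TMSB10, outside the top 100, had 78.1% on exon 2. The length here includes untranslated regions: exon 2 of B2M has 279 bases, beside a coding sequence of 119 codons. An exon with much of the coding sequence can therefore pass this rule. How evenly the bases lay within an exon was not tested.

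The amino acids that ribosomes were adding followed from the genes they were on. With each coding sequence weighted by its gene's aligned bases, lysine made up 6.97% of residues, against 6.09% with genes counted equally, a ratio of 1.14. Methionine (1.11) and isoleucine (1.10) were next, and cysteine (0.825) and histidine (0.861) were lowest. The order was similar in the other libraries, with a lysine ratio of 1.15 to 1.17 and a cysteine ratio of 0.780 to 0.796. Without CAP1 the lysine share in THP-1 was 6.93%. In the top 100 genes glycine reached 8.34% and lysine 7.40%. G or C at the third codon position made up 56.2% in THP-1 by bases and 57.9% with genes counted equally, against 54.5% in K562, 53.8% in the library labelled MOLM13, with HL60 at 57.2%.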

How the data were processed

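Ribosome footprints of 4 lines, 1 library each, were analysed from the deposited transcript tables, in which the authors gave coverage, FPKM and TPM values per transcript and a coverage value per exon. Per the file headers, StringTie 2.1.5 estimated these against a GENCODE release 37 annotation with no strand option. The submitters' processing notes name build hg38, STAR 2.7.8a, Bowtie2 2.4.2 and Trim Galore 0.6.6, without roles. Without strand, overlapping and antisense genes share reads. Aligned bases are coverage times exon length, summed per gene identifier, and ppm is the share over the 19399 members, with 10000 ppm for 1%. Gene classes came from GENCODE release 29 by unversioned identifier (58361 genes) or RefSeq by symbol (89), and 2201 genes had no class. Members exclude 493 clone-named genes and 17 copies on the pseudoautosomal Y, and include 13 mitochondrial genes. Transcript types were matched by identifier without version. Fragment length was the commonest total of aligned bases among transcripts with a single fragment. Intervals are exact binomial or Poisson at 95%, and PCR duplicates are not removed by them. Levels of other libraries are shares of their own totals and no normalisation between libraries was made. Named genes are the top 20 by each measure, the first 3 of each list and members listed at 0 where at most 4, the 8 lowest and 4 highest leading-transcript shares, the 5 largest rank gaps in each direction, up to 10 genes led by 1 exon, up to 10 in no list and the 10 largest at least 4-fold above the other lines. Others named were chosen after their values were seen, and some genes that the rule selects are not reported here. The genes and lists were chosen with earlier results of these data known. Functions were tested on simulated data. Python 3.11.15, pandas 2.3.3, NumPy 2.4.6, SciPy 1.17.1 and Matplotlib 3.10.9 were used. Alternatives covered TPM, the top transcript, exon overlap, mitochondrial genes, a TPM of at least 1, genes led by 1 exon, pseudocounts of 0.1 and 5 ppm in place of 1, folds of 2 and 8, and left-out libraries or genes.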

Additional observations from a re-analysis of the deposited data

Results flagged for a closer look

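Outside the protein-coding genes, AC073140.1 (chr7:148941483-148941638, plus strand), a gene of 156 bases with no class in the annotation used, held 0.889% of all aligned bases of the THP-1 library. It held 1.65% in K562, 0.709% in the library labelled MOLM13, with HL60 at 0.381%, and its TPM in THP-1 was 66638, above that of each member. The nuclear long noncoding RNA MALAT1 (chr11:65497688-65506516) held 0.243%, against 0.241%, 0.202% and 0.0711% in the same order. The mitochondrial ribosomal RNAs MT-RNR2 (8.45%) and MT-RNR1 (0.923%) held more of the THP-1 library than AC073140.1. The ribozyme RPPH1 (0.232%) and the small nuclear RNA RNU5B-1 (0.217%) were close to MALAT1. AC073140.1 and MALAT1 were singled out because they, too, carry signal in genes that the comparisons above did not use.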

How the results depend on the processing

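The share of aligned bases in the top 100 genes was 29.6% by TPM, 19.4% with the top transcript of each gene only, 30.2% among genes without exon overlap, 20.5% among nuclear genes, 20.5% at a TPM of at least 1 and 22.6% without genes led by 1 exon. Chosen after seeing the data, leaving out the chromosome 1 run from PPIE to CITED4 gave 19.03% and leaving out genes with over 75% shared windows gave 21.2%. The share of ribosomal proteins under these 8 settings, in the same order, was 7.29%, 2.86%, 2.51%, 3.45%, 3.45%, 2.95%, 3.53% and 2.87%. Each of these moved by more than the counting interval, which is narrow at this depth. The number of genes holding 50% of aligned bases was 339 by TPM and 316 among genes without exon overlap, and stayed within 1.5 times of 681 under the other 6 settings. The median leading-transcript share of the top 100 was 97.2% among genes without exon overlap and 86.1% to 91.4% otherwise. In the main setting, 16 of the top 100 genes were at least 4-fold above the other lines. Of all members with the minimum of aligned bases, 5.08% were. At 2-fold the count was 21, against 9.88%, and at 8-fold 9, against 2.67%, where the stricter threshold itself lowers both. Without genes listed at 0 the count was 11 of 93, against 0.781%, and without the chromosome 1 run 12 of 96, against 4.94%. The other 4-fold settings gave 16 or 17, against 2.16% to 6.79%. The top 100 were chosen for a high THP-1 level, so nothing is read from these contrasts. Settings that leave out genes also change the set over which a share is taken. Of 19399 members, 10749 had no exon overlap and 17930 remained without those over 75% shared. Those over 75% shared include 40 of the 84 ribosomal protein genes. Beyond these changes and the stricter threshold, the cause of the shifts was not tested. No paired analysis was possible because each line had 1 library. With 1 library a line, the spread between cultures is unknown.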
